A study of Mus musculus with 12 samples.

Results

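A set of 9 genes used in this field to read cellular senescence and inflammatory signalling was followed through libraries labelled as male and female bone endothelial cells (BECs) of young and old mice. They were the cyclin-dependent kinase (CDK) inhibitors Cdkn2a, Cdkn2b and Cdkn1a, the tumour suppressor Trp53, the nuclear lamina protein Lmnb1 and the cytokines Tnf, Il6, Il1a and Il1b. Each symbol was matched to its Ensembl gene ID in the deposited count table, which gave 9 of 37620 genes. BECs of mice labelled c57/Bl6 (C57BL/6J in the methods of the study), an inbred strain, had been isolated through endomucin, which capillary cells of bone carry on their surface, and are labelled as taken fresh from tibia. Each of the 4 groups, which were females and males of 2 weeks and of 65 weeks, held 3 libraries, and the labels name no mutation or treatment in any group. The 65-week groups were compared with the 2-week groups within each sex, males with females within each age, and the age difference between the sexes. Nothing in the labels states that replicates came from separate animals, so the p-values measure the spread between these libraries, which may be technical.

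Senescence is a lasting exit from the cell cycle. The Cdkn2a locus encodes p16, which blocks the kinases that drive cells out of G1, and from another reading frame p19, which keeps the ubiquitin ligase Mdm2 away from p53. Cdkn2b encodes p15, a close relative of p16, and Cdkn1a encodes p21, an inhibitor of several CDKs that is switched on by p53. Loss of lamin B1 is widely used as a mark of senescent cells, and such cells can secrete cytokines, proteases and growth factor binding proteins. In old bone, cytokines such as TNF-α and IL-6 are studied for their effects on bone resorption and on marrow fat. The study measured both as factors that act on fat cells, and names no old mice there. It measured their transcripts in BECs of mice given oestradiol and of endothelial mutants, and the proteins in medium of cultured BECs.

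Total counts per library ranged from 26044743 to 44569600, and no pair of replicates was alike within sampling noise (chi-square divided by its degrees of freedom, 24.96 to 95.61). Levels are given as CPM, that is counts per 1000000 counts of the library. The cell type named in the labels was checked against 16 endothelial markers. Their summed level was between 3684.8 and 6748.1 CPM in the 6 libraries of 2 weeks and between 245.0 and 361.9 CPM in the 6 libraries of 65 weeks, and all 16 fell with age in both sexes. Of 12 neutrophil markers 10 rose in females and 12 in males, and their summed level at 65 weeks was 12316.8 to 26812.9 CPM. Summed levels of 9 erythroid markers were 30535.9 to 57336.3 CPM at 2 weeks and 30920.6 to 47677.1 CPM at 65 weeks. Erythroid sums thus exceeded endothelial sums at both ages, and neutrophil sums did so at 65 weeks. Sums of different lists are not shares of cells. The libraries held RNA of blood cell markers besides endothelial ones, and BECs is kept below as the labelled name. All 10 osteoblast and chondrocyte markers fell in both sexes. Of all genes tested, 30.2% rose and 29.5% fell in females, and 27.0% rose and 28.5% fell in males (edgeR adjusted p under 0.05). The counts of markers here and below are to be read against these shares. Male 65-week replicate 3 stood apart: it held 117 counts of Xist, the RNA of the inactive X chromosome, which was 3.35% of the mean level of 65-week females, while the other male libraries held 0 to 3. For the members, each call it changed and each called value it moved by more than 1.5 times is given with and without it. Female 2-week replicate 3 held 25 counts of 4 Y-linked genes, 0.471% of the mean level of young males, where the other female libraries held 0 or 1, and its Xist level was 184.6 CPM beside 96.7 and 95.1 CPM in the other young females. Without it the members called did not change in the age comparison of females or between young males and females. In RNA from a mixed pool, fewer cells of a type and less RNA per cell cannot be told apart.

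**Figure D1:**
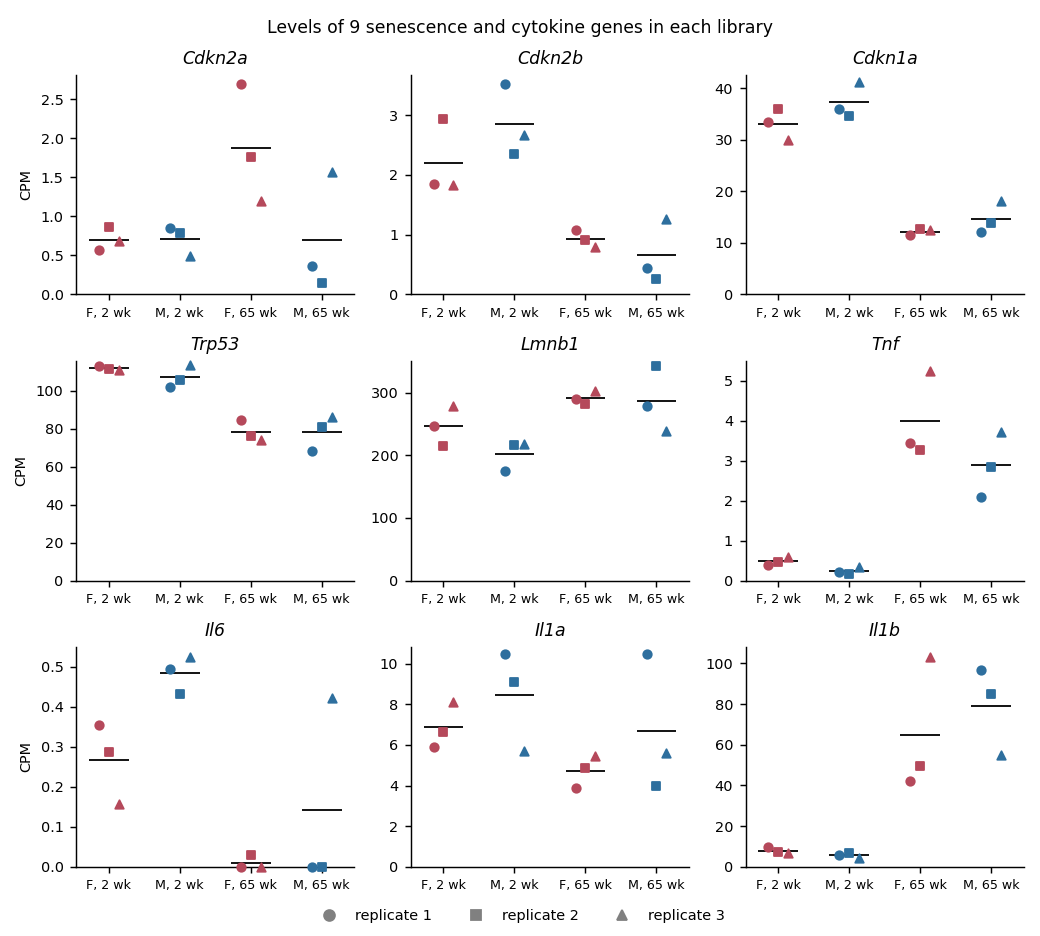
Level in CPM of the 9 genes in each of the 12 libraries, by sex (F, M) and age in weeks, with the mean of each group as a line and the replicate number as the marker. Tnf and Il1b sat higher in all 65-week libraries than in all 2-week libraries, and Cdkn1a and Trp53 sat lower. Replicate 3 of 65-week males lay above replicates 1 and 2 for Cdkn2a, Cdkn2b, Cdkn1a, Trp53, Tnf and Il6, and below them for Lmnb1 and Il1b.

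To show where these genes start, the 250 bases before their RefSeq start sites (GRCm38.p6) were searched for short motifs. The motifs were chosen after the promoters had been read. They were the kappaB consensus bound by NF-kappaB, the 10-base consensus bound by p53, TATAAA (the TATA box), TGANTCA (AP-1), TTTCCCGC (E2F) and TGACGTCA (the cyclic AMP response element), searched on both strands. Among 32851 promoters of the same length, 3.9% held the kappaB consensus, 7.13% the p53 consensus, 12.4% TATAAA, 6.75% TGANTCA, 0.895% TTTCCCGC and 1.55% TGACGTCA. Sequences are written from 5′ to 3′ on the strand of the gene, with the matches in capitals. The CDK inhibitors are shown because Cdkn2a has a pair of start sites whose reads enter a single count, because Cdkn2b is its neighbour and because Cdkn1a is a textbook target of p53:
Cdkn2a upstream start, chr4:89294620-89294869, minus strand: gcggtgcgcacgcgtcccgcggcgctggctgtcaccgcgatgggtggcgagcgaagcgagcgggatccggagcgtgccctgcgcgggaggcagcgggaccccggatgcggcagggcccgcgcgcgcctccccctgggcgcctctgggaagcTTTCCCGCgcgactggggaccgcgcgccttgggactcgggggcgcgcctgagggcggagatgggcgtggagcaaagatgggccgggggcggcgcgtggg
Cdkn2a downstream start, chr4:89282193-89282442, minus strand: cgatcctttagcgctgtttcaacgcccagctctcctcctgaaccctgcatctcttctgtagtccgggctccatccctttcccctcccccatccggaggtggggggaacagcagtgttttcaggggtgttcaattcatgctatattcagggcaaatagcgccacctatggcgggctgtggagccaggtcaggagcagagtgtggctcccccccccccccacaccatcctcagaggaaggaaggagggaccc
Cdkn2b, chr4:89311033-89311282, minus strand: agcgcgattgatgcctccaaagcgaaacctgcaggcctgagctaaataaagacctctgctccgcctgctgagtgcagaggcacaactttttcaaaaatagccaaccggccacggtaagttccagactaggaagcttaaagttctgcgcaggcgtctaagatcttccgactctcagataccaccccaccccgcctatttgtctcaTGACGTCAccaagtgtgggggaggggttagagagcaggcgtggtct
Cdkn1a upstream start, chr17:29090729-29090978, plus strand: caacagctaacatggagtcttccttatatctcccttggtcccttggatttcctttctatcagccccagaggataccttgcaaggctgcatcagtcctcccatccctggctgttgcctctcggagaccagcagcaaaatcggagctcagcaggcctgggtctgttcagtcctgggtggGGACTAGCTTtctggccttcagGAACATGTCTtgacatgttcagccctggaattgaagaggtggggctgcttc

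The upstream start of Cdkn2a, which belongs to the p19 transcript, held TTTCCCGC from 99 to 92 bases before the start, and the downstream start, which belongs to p16, held none of these motifs. Cdkn2b held TGACGTCA from 46 to 39 bases before its start. The upstream start of Cdkn1a held the p53 consensus at 2 places, from 73 to 64 and from 51 to 42 bases before the start. Its downstream start, which is not printed, held none of these motifs. Trp53, also not printed, held the p53 consensus from 75 to 66 bases before its start. It held TATAAA on the other strand from 248 to 243 bases before it. The cytokines are shown because Tnf and Il1b moved with age whereas Il6 and Il1a did not move with them:
Tnf, chr17:35202008-35202257, minus strand: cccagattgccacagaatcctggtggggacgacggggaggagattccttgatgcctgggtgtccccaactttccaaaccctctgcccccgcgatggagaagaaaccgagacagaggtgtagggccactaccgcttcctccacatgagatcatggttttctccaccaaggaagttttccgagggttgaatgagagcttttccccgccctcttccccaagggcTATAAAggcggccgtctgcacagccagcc
Il1b, chr2:129371140-129371389, minus strand: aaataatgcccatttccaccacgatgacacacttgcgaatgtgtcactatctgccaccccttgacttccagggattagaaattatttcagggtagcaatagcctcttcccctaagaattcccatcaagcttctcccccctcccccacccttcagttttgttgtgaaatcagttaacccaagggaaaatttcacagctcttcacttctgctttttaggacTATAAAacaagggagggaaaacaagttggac
Il1a, chr2:129309973-129310222, minus strand: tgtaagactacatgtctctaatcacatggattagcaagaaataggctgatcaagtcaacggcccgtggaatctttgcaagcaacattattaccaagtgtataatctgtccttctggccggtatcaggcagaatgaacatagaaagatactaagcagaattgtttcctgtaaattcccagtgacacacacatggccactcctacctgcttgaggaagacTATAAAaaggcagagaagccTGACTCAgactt
Il6, chr5:30012864-30013113, plus strand: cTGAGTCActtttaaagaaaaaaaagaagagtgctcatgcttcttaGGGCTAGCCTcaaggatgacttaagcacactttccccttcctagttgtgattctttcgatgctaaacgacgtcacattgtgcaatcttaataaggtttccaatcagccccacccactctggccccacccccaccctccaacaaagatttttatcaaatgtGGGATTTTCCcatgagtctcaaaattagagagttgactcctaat

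Tnf, Il1b and Il1a each held TATAAA, beginning 29, 31 and 32 bases before the start. Il1a also held TGACTCA from 12 to 6 bases before its start. Il6 held the kappaB consensus from 44 to 35, TGAGTCA from 249 to 243 and the p53 consensus from 204 to 195 bases before its start. A match is a description of these letters and not of a binding site in BECs.

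Whether senescence and cytokine genes differ between young and old libraries labelled as BECs was asked in each sex. In females 7 of the 8 members tested differed (adjusted p under 0.05 in the quasi-likelihood test of edgeR), beside 59.7% of all 15120 genes tested: Cdkn2a, Lmnb1, Tnf and Il1b were higher at 65 weeks, and Cdkn2b, Cdkn1a and Trp53 were lower. In males 6 of 9 differed, beside 55.5% of all 14959 genes: Lmnb1, Tnf and Il1b were higher and Cdkn2b, Cdkn1a and Trp53 lower. When male 65-week replicate 3 was left out, the male count was 7, with Il6 added among the lower genes, beside 62.0% of 15437 genes. Most genes thus differed with age in these libraries, and the share of members is to be read against that. The median log2 fold change of the members tested was 0.00 in females and -0.21 in males, beside 0.01 over all genes in both sexes. With library totals in place of TMM scaling the median of all genes was at -0.13 in females and -0.11 in males.

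**Figure D2:**
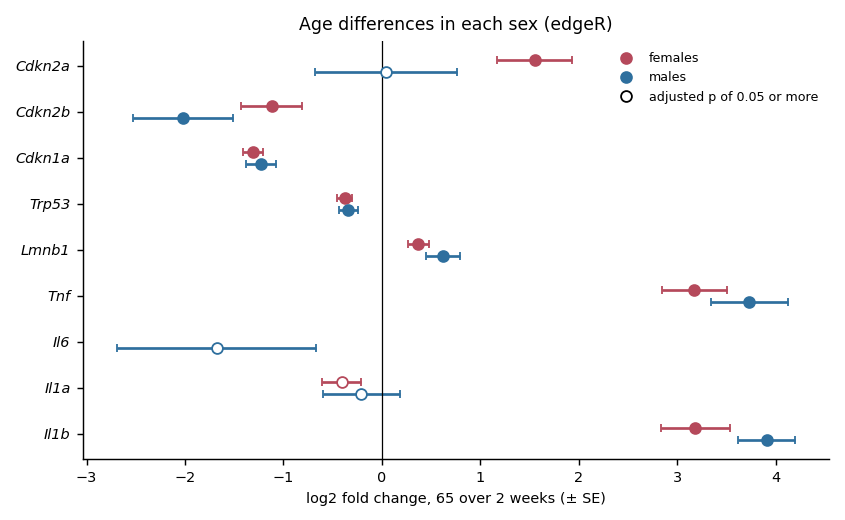
Log2 fold change of 65 over 2 weeks with its SE for each gene in females and in males, from edgeR. Filled points passed the adjusted p of 0.05, and the largest rises were those of Tnf (3.17 and 3.73) and Il1b (3.18 and 3.91). Il6 was not tested in females.

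Cdkn2a (ENSMUSG00000044303, GRCm39 chromosome 4, 89192708 to 89212890, minus strand) was a low transcript. It was counted 21, 30 and 26 times in 2-week females (0.572, 0.857 and 0.679 CPM) and 78, 60 and 35 times in 65-week females (2.69, 1.76 and 1.19 CPM). In males it was counted 38, 33 and 18 times at 2 weeks (0.853, 0.79 and 0.495 CPM) and 10, 4 and 41 times at 65 weeks (0.366, 0.148 and 1.57 CPM). All old female libraries lay above all young ones, whereas in old males replicates 1 and 2 lay below every young library and replicate 3 above every young library. In females the level rose from 0.703 ± 0.144 to 1.88 ± 0.753 CPM (SD, n = 3 each; log2 fold change 1.55, SE 0.38, edgeR adjusted p = 0.00812). In males it was 0.713 ± 0.191 and 0.696 ± 0.768 CPM (log2 fold change 0.04, SE 0.72, edgeR adjusted p = 0.967). The mean levels of young females, young males and old males did not differ beyond their spread, and that of old females was the highest.

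Both values of Cdkn2a leaned on single libraries. The male log2 fold change was -1.34 when 65-week replicate 3 was left out (edgeR adjusted p = 0.0688), and the female one was 1.37 when 2-week replicate 1 was left out (edgeR adjusted p = 0.0531). B cell markers varied between the same libraries. Of 8 such markers 7 rose with age in each sex, none was at 0 throughout a group, and their summed level was 540.5, 409.2 and 1592.6 CPM in the old male replicates 1, 2 and 3 and 1262.2, 904.2 and 915.4 CPM in the old females, with 262.0 to 350.7 CPM in the young libraries. Of 6 early B cell markers 1 rose and 2 fell in females and 1 rose and 4 fell in males, with summed levels of 32.9, 22.6 and 47.7 CPM in the old male replicates, 70.4, 45.5 and 35.3 CPM in the old females and 57.2 to 83.2 CPM in the young libraries. The part of B lineage cells in the Cdkn2a level was not tested. The counts do not separate the p16 and p19 transcripts.

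Cdkn2b (ENSMUSG00000073802, chromosome 4, 89223204 to 89229276, minus strand) lies 10.3 kb from Cdkn2a and moved the other way in females. It was counted 68, 103 and 70 times in young females (1.85, 2.94 and 1.83 CPM) and 31, 31 and 23 times in old females (1.07, 0.909 and 0.785 CPM). In males it was counted 157, 98 and 97 times at 2 weeks (3.52, 2.35 and 2.67 CPM) and 12, 7 and 33 times at 65 weeks (0.439, 0.259 and 1.27 CPM). Young and old libraries did not overlap in either sex, and as with Cdkn2a the old male replicate 3 lay above replicates 1 and 2. The level fell from 2.21 ± 0.636 to 0.92 ± 0.142 CPM in females (log2 fold change -1.12, SE 0.31, edgeR adjusted p = 0.0139) and, in males, from 2.85 ± 0.608 to 0.655 ± 0.537 CPM (-2.02, SE 0.51, edgeR adjusted p = 0.0116). The fall in males was 7.41-fold in place of 4.06-fold when 65-week replicate 3 was left out (edgeR adjusted p = 0.000467), and the female call was lost when 2-week replicate 2 was left out (edgeR adjusted p = 0.0686).

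**Figure D3:**
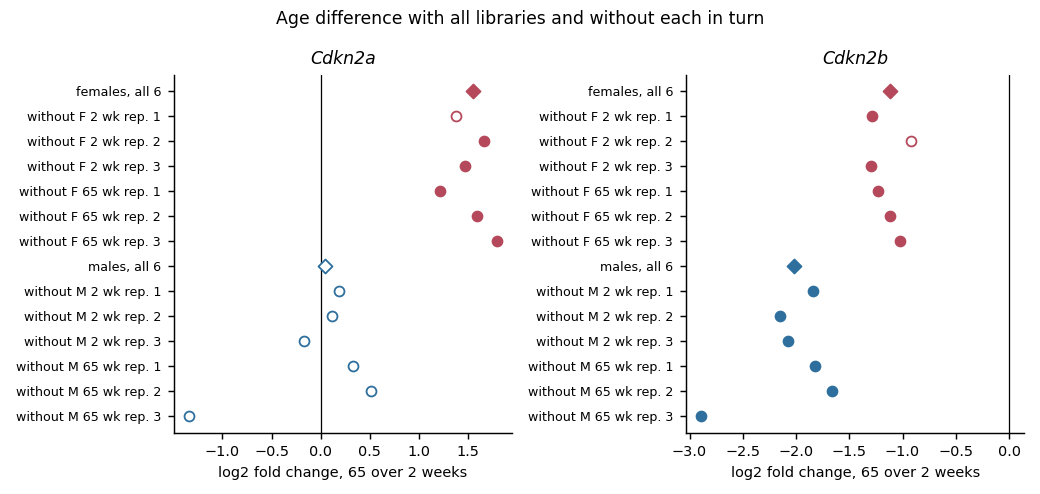
Log2 fold change of 65 over 2 weeks of Cdkn2a and Cdkn2b with all 6 libraries of a sex (diamonds) and without each library in turn (circles). Filled symbols passed the edgeR adjusted p of 0.05. Without male 65-week replicate 3 the male value of Cdkn2a moved from 0.04 to -1.34 and that of Cdkn2b from -2.02 to -2.89.

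Cdkn1a (ENSMUSG00000023067, chromosome 17, 29309936 to 29319701, plus strand), which encodes p21, was measured with 331 to 1604 counts per library. In young females it stood at 33.4, 36 and 29.9 CPM and in old females at 11.5, 12.7 and 12.4 CPM. In young males it stood at 36, 34.7 and 41.2 CPM and in old males at 12.1, 13.8 and 18.2 CPM. All old libraries lay below all young libraries, whichever the sex. The level fell from 33.1 ± 3.08 to 12.2 ± 0.626 CPM in females (log2 fold change -1.31, SE 0.10, edgeR adjusted p = 1.88e-05) and, in males, from 37.3 ± 3.44 to 14.7 ± 3.16 CPM (-1.23, SE 0.15, edgeR adjusted p = 0.000311). The call held without each library in turn, with log2 fold changes from -1.44 to -1.27 in females and from -1.4 to -1.14 in males.

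Other CDK inhibitors did not fall with Cdkn1a as a group. Of 3 listed genes that were measured, 2 rose and 1 fell in females, and 2 rose and 0 fell in males, while the shares of all genes were 30.2% higher and 29.5% lower in females and 27.0% higher and 28.5% lower in males. The age counts of each list below, with all libraries, are to be read against these shares. Cdkn1b, which encodes p27, rose from 61 ± 9.98 to 138.8 ± 9.11 CPM in females (log2 fold change 1.32) and, in males, from 58.3 ± 5.99 to 121.3 ± 3.23 CPM (1.17). Cdkn2c, which encodes p18, rose by 0.57 in females and by 0.85 in males on the log2 scale.

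The partners on which these inhibitors act were split. Of 11 G1 cyclins, G1 kinases and RB family members, 3 rose and 2 fell in females and 4 rose and 3 fell in males. Ccnd1 (cyclin D1) fell, with log2 fold changes of -1.27 in females and -1.77 in males, and so did its kinase Cdk4 (-0.95 and -0.74). Ccne2 (cyclin E2) rose by 0.79 and 1.13, and the RB relative Rbl2 rose by 0.77 and 0.82. Of 20 proliferation genes, 0 passed the edgeR test in females (median log2 fold change 0.10; 2 had an unadjusted p under 0.05, and DESeq2 called 2), and in males 6 rose and 0 fell (median 0.43). Leaving out male 65-week replicate 3 gave 18 higher and 0 lower of these 20 genes, and 8 higher and 3 lower of the 11 G1 genes. In that fit 4521 of all 15437 genes were higher and 5043 lower. Of 12 Polycomb group genes, which encode the repressors known to silence the Cdkn2a locus, 4 rose and 3 fell in females and 4 rose and 4 fell in males. Cbx7, a reader of the Polycomb mark, rose by 1.61 and 1.72, and Pcgf2 fell from 10.1 ± 1.1 to 1.75 ± 0.65 CPM in females and, in males, from 10 ± 0.863 to 1.35 ± 0.823 CPM.

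Trp53 (ENSMUSG00000059552, chromosome 11, 69469669 to 69482701, plus strand), which encodes p53, was measured with 1862 to 4556 counts per library. It stood at 113.2, 111.4 and 111.1 CPM in young females and 84.4, 76.3 and 74.1 CPM in old females. In males it stood at 102.2, 105.6 and 113.6 CPM at 2 weeks and 68.1, 80.7 and 86 CPM at 65 weeks. All old libraries lay below all young ones, and the difference was small beside those of Tnf and Il1b. The log2 fold change was -0.38 in females (SE 0.08, edgeR adjusted p = 0.00343) and -0.34 in males (SE 0.10, edgeR adjusted p = 0.0202), and the male call was lost without 2-week replicate 2, 2-week replicate 3 or 65-week replicate 1 (edgeR adjusted p = 0.0555, 0.0752 and 0.0666). The antisense gene Wrap53 shares 263 of the 7379 exonic bases of Trp53, and whether counting used strand is not given in the sources used here.

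Regulators and targets of p53 did not move as a block. Of 9 regulators, 5 rose and 1 fell in females and 3 rose and 1 fell in males. Mdm2, which marks p53 for breakdown and is itself a p53 target, rose from 47 ± 2.98 to 67.4 ± 1.14 CPM in females and, in males, from 45.3 ± 1.31 to 62.6 ± 1.29 CPM, whereas the damage kinase Atr fell (log2 fold changes -0.46 and -0.40, the male call being lost in 4 of the 6 fits that left out 1 library). Of 20 p53 targets, 10 rose and 6 fell in females and 9 rose and 5 fell in males. Trp53inp1 rose by 1.48 and 1.17 and Pmaip1 (Noxa, a protein that promotes apoptosis) by 1.72 and 1.42. Gdf15, a secreted stress protein, rose from 0.769 ± 0.153 to 4.16 ± 1.35 CPM in females and, in males, from 1.14 ± 0.306 to 10.7 ± 2.03 CPM. Phlda3 fell (-2.64 and -2.22), and the death receptor Tnfrsf10b fell from 8.46 ± 1.69 to 0.891 ± 0.24 CPM in females and, in males, from 10.8 ± 0.86 to 0.975 ± 0.308 CPM.

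Lmnb1 (ENSMUSG00000024590, chromosome 18, 56840590 to 56886496, plus strand) was the highest member per exonic length in every group, at 68.4 ± 8.87 CPM per kb in young females, 56.2 ± 6.78 in young males, 80.8 ± 2.75 in old females and 79.5 ± 14.6 in old males. Its levels in the libraries were 246.8, 214.8 and 278.9 CPM in young females and 289.9, 282.8 and 302.4 CPM in old females. In males they were 174.6, 216.5 and 217.5 CPM at 2 weeks and 279.7, 343.0 and 238.6 CPM at 65 weeks. The ages did not overlap within a sex, but young females overlapped with old males. Lmnb1 rose, with log2 fold changes of 0.37 in females (SE 0.11, edgeR adjusted p = 0.0217) and 0.62 in males (SE 0.17, edgeR adjusted p = 0.0151). The female call was lost with library totals in place of TMM scaling (0.24, edgeR adjusted p = 0.0722) and without 2-week replicate 1, 65-week replicate 2 or 65-week replicate 3 (edgeR adjusted p = 0.0725, 0.0503 and 0.0643), and the male call without 2-week replicate 1 (edgeR adjusted p = 0.0643). The antisense gene Marchf3 shares 466 of its 3610 exonic bases and was measured at 33.8 to 55.9 CPM over the 12 libraries.

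Of 11 other genes of the lamina and nuclear envelope, 5 rose and 4 fell in females, and 4 rose and 1 fell in males. Lbr, the lamin B receptor, rose by 0.79 and 1.00 on the log2 scale in females and males, and Sun2, which ties the nucleus to the cytoskeleton, by 0.96 and 1.47. Emd (emerin) fell (-0.39 and -0.50).

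Tnf (ENSMUSG00000024401, chromosome 17, 35418357 to 35420983, minus strand), which encodes TNF-α, was counted 14, 16 and 23 times in young females (0.381, 0.457 and 0.601 CPM) and 100, 111 and 154 times in old females (3.44, 3.26 and 5.25 CPM). In males it was counted 9, 7 and 12 times at 2 weeks (0.202, 0.168 and 0.33 CPM) and 57, 77 and 97 times at 65 weeks (2.09, 2.85 and 3.72 CPM). All old libraries lay above all young libraries, and the young females lay above the young males. The level rose from 0.48 ± 0.111 to 3.98 ± 1.1 CPM in females (log2 fold change 3.17, SE 0.33, edgeR adjusted p = 8.88e-05) and, in males, from 0.233 ± 0.0858 to 2.89 ± 0.82 CPM (3.73, SE 0.39, edgeR adjusted p = 0.000133). The order of the means was old females, old males, young females and young males, and the old groups overlapped.

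Other blood cell markers also varied with age. Of 10 T and NK cell markers 9 rose and 1 fell in females and 8 rose and 1 fell in males, and their summed level was 58.5 to 81.9 CPM in young and 124.9 to 218.4 CPM in old libraries. Most of this sum was Cd4, without which it was 12.7 to 21.6 CPM in young and 29.5 to 48.1 CPM in old libraries. Of 12 monocyte and macrophage markers 10 rose and 1 fell in females and 6 rose and 1 fell in males, with summed levels of 2708.0 to 4603.2 CPM in young and 3477.9 to 5091.9 CPM in old libraries. None of either list was at 0 throughout a group, and the part of these cells in the levels of Tnf, of the TNF pathway, of NF-kappaB genes and of chemokines was not tested.

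Of 14 other genes of the TNF pathway, 10 rose and 2 fell in females and 6 rose and 2 fell in males. Of all genes tested, 30.2% rose and 29.5% fell in females, and 27.0% rose and 28.5% fell in males. The receptors moved apart: Tnfrsf1b, the receptor found mainly on blood cells, rose from 105.3 ± 11.7 to 390.1 ± 93.6 CPM in females and, in males, from 99.7 ± 3.81 to 256.2 ± 25.3 CPM. Tnfrsf1a, the receptor found on most cells, fell from 240.1 ± 38.3 to 147.0 ± 18.7 CPM and from 285.7 ± 29.3 to 160.2 ± 4.19 CPM. Ltb (lymphotoxin beta) rose by 2.53 and 2.82 on the log2 scale, and its receptor Ltbr fell (-0.98 and -1.11). Of 12 NF-kappaB genes, 9 rose and 0 fell in females and 5 rose and 0 fell in males. Nfkbia, the inhibitor that NF-kappaB induces, rose by 1.13 and 0.65, and Nfkbiz rose from 3.27 ± 0.811 to 19 ± 1.04 CPM in females and, in males, from 1.95 ± 0.17 to 10.4 ± 2.77 CPM. With male 65-week replicate 3 left out, 5 of these genes rose and 1 fell in males, where 62.0% of all 15437 genes were called.

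Il1b (ENSMUSG00000027398, chromosome 2, 129206490 to 129213059, minus strand), which encodes interleukin 1 beta, was counted 361, 250 and 253 times in young females (9.83, 7.14 and 6.61 CPM) and 1219, 1693 and 3026 times in old females (42, 49.7 and 103.2 CPM). In males it was counted 260, 291 and 156 times at 2 weeks (5.83, 6.97 and 4.29 CPM) and 2649, 2292 and 1430 times at 65 weeks (96.9, 84.9 and 54.9 CPM). All old libraries lay above all young ones, and the old groups overlapped. The level rose from 7.86 ± 1.73 to 65 ± 33.4 CPM in females (log2 fold change 3.18, SE 0.35, edgeR adjusted p = 0.000136) and, in males, from 5.7 ± 1.34 to 78.9 ± 21.7 CPM (3.91, SE 0.29, edgeR adjusted p = 2.45e-05). Per exonic length it overtook Trp53: the means were 25 ± 12.8 and 30.3 ± 8.32 CPM per kb in old females and old males, beside 10.6 ± 0.736 and 10.6 ± 1.25 for Trp53.

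The order of the old libraries in Il1b was also their order in neutrophil markers within each sex. The orders differed among the young libraries of each sex and across the old sexes. Old female replicate 3 had the highest Il1b level but a lower neutrophil sum than every old male library. The summed level of 12 such markers was 12316.8, 14412.3 and 16588.4 CPM in old females and 26812.9, 26565.7 and 18219.4 CPM in old males, replicates 1 to 3. It was 6578.8, 5250.3 and 5907.6 CPM in young females and 4166.4, 4469.7 and 4239.3 CPM in young males. None of the markers was at 0 throughout a group, and the part of neutrophil RNA in the Il1b level was not tested.

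Il1a (ENSMUSG00000027399, chromosome 2, 129140291 to 129152098, minus strand) lies 54.4 kb from Il1b and encodes the other ligand of the same receptor. It stood at 5.91, 6.65 and 8.12 CPM in young females, 3.89, 4.84 and 5.46 CPM in old females, 10.5, 9.1 and 5.72 CPM in young males and 10.5, 4 and 5.61 CPM in old males. The ages did not overlap in females and overlapped in males. The difference did not pass the edgeR test in females (log2 fold change -0.41, SE 0.20, adjusted p = 0.114) or in males (-0.21, SE 0.39, adjusted p = 0.672), and with library totals in place of TMM scaling it did in females (-0.54, edgeR adjusted p = 0.045). The antisense gene Gm14023 shares 477 of its 3486 exonic bases, with 28 to 83 counts per library beside 108 to 467 of Il1a.

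Of 17 other genes of the interleukin 1 pathway, 9 rose and 1 fell in females and 11 rose and 1 fell in males. Over all genes tested, 59.7% were called in females and 55.5% in males. Il1r1, the signalling receptor, was the gene that fell, from 26.6 ± 3 to 10.7 ± 1.51 CPM in females and, in males, from 28.1 ± 1.5 to 10.4 ± 1.54 CPM. Il1r2, a decoy receptor that binds the ligand without signalling, rose from 7.18 ± 2.41 to 30.6 ± 10.7 CPM and from 4.24 ± 0.834 to 27.7 ± 3.39 CPM. Nlrp3 and Casp1, the sensor and the protease that release mature interleukin 1 beta, rose by 1.59 and 1.06 on the log2 scale in females and by 2.19 and 0.54 in males.

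Il6 (ENSMUSG00000025746, chromosome 5, 30218112 to 30224979, plus strand) was among the lowest members. It was counted 13, 10 and 6 times in young females (0.354, 0.286 and 0.157 CPM) and 0, 1 and 0 times in old females. In males it was counted 22, 18 and 19 times at 2 weeks (0.494, 0.431 and 0.523 CPM) and 0, 0 and 11 times at 65 weeks, the 11 counts (0.422 CPM) falling in replicate 3. Every old library lay below every young library of its sex, and outside old male replicate 3 the old libraries held at most 1 count. Over both sexes the mean was 0.374 CPM at 2 weeks and 0.0753 CPM at 65 weeks (two-sided exact permutation of ages within sex, p = 0.005, the smallest that 400 relabelings can give). Against a floor of 3 counts per library the level was at least 2.71-fold lower in old females, and without male 65-week replicate 3 at least 4.37-fold lower in old males.

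Il6 was too low in females for the expression filter of the edgeR fit. With no filter it passed there (edgeR adjusted p = 0.0158). In males the difference did not pass with all libraries (log2 fold change -1.68, SE 1.01, edgeR adjusted p = 0.19) and passed without 65-week replicate 3 (edgeR adjusted p = 0.00218). Il6 thus moved opposite to Tnf and Il1b in these libraries.

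The receptors of interleukin 6 also moved apart. Of 10 other genes of this pathway, 5 rose and 2 fell in females and 2 rose and 3 fell in males. Il6st (gp130), the signalling chain, fell from 606.6 ± 141.4 to 74.1 ± 2.56 CPM in females and, in males, from 762.9 ± 96.4 to 63.3 ± 10.2 CPM, whereas Il6ra, the binding chain, rose by 1.40 and 1.28 on the log2 scale. Socs3, the feedback inhibitor that this pathway induces, fell (-0.93 and -1.19), and its female call was lost without 65-week replicate 2 (edgeR adjusted p = 0.0505).

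The wider set of secreted factors linked to senescence held rises and falls in like numbers. Of 25 tested, 11 rose and 13 fell in females (median log2 fold change -0.22) and 9 rose and 11 fell in males (-0.23). The genes named by the rule that rose encode chemokines and the receptor Plaur: Ccl8 rose from 1.38 ± 0.179 to 41.2 ± 13.4 CPM in females and, in males, from 1.9 ± 0.351 to 23.1 ± 19.8 CPM, and Ccl5 and Ccl4 rose by 2.66 and 2.58 in females and by 2.36 and 3.77 in males. The rise of Ccl8 in males was 6.87-fold in place of 12.8-fold when 65-week replicate 3 was left out. In the same fit the counts of all lists in males, other than the proliferation and G1 lists, moved by at most 1 in each direction. Those that fell encode matrix and growth factor binding proteins: Spp1 (osteopontin) fell from 1546.4 ± 327.7 to 26.5 ± 5.85 CPM in females and, in males, from 1929.4 ± 221.5 to 107.0 ± 31.2 CPM. Mmp13 (a collagenase) had log2 fold changes of -5.59 in females and -5.86 in males, Igfbp3 of -4.60 and -4.28 and Igfbp4 of -3.58 and -3.11. The median of the 10 osteoblast and chondrocyte markers was -5.54 in females and -5.15 in males. That of the 16 endothelial markers was -4.22 and -4.51. The part of these cells in the falls of the secreted factors was not tested.

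**Figure D4:**
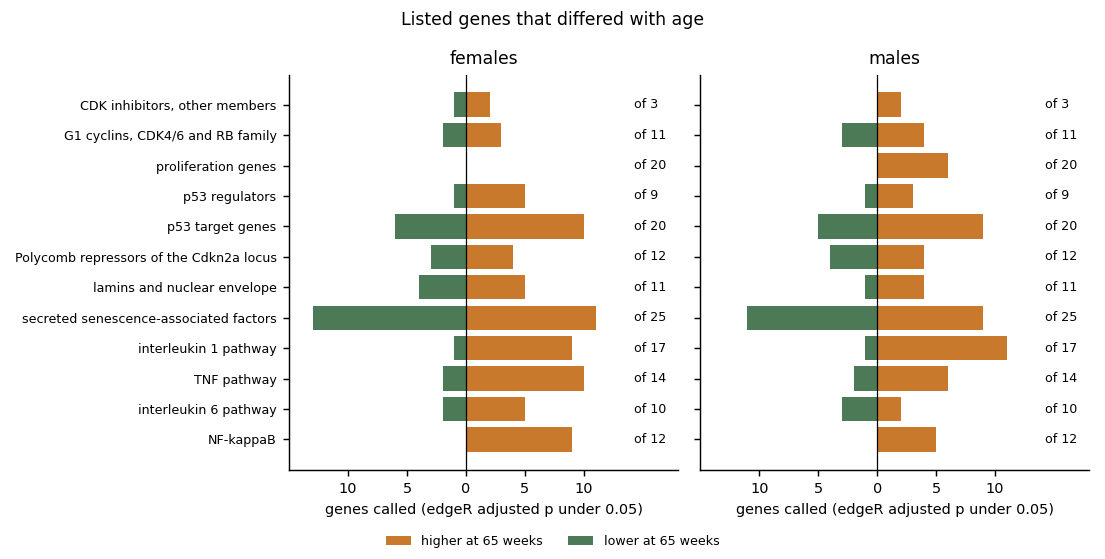
Number of genes called higher (right of 0) and lower (left of 0) at 65 weeks by edgeR in 12 lists, for females and males, with the number tested beside each bar. Genes called in the interleukin 1, TNF and NF-kappaB lists were mostly higher, although in males 6 of 14 TNF genes and 7 of 12 NF-kappaB genes were not called. The secreted factors were split, with 11 higher and 13 lower in females. Over all genes tested, 59.7% were called in females (30.2% higher, 29.5% lower) and 55.5% in males (27.0% higher, 28.5% lower).

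Whether the sexes differ was asked at each age. At 2 weeks 0 of 9 members differed between male and female libraries (edgeR adjusted p under 0.05), beside 0.0332% of 15081 genes. Beside 2683 of the 15081 genes, 2 of the 9 members had an unadjusted p under 0.05. These were Tnf, which was lower in young males (log2 fold change of males over females -1.08, SE 0.35, edgeR adjusted p = 0.231), and Il6, which was higher (0.84, SE 0.33, edgeR adjusted p = 0.259). For both genes the young males and young females did not overlap. How many of all genes did not overlap is not given here. At 65 weeks 0 of 8 members differed, beside 0.0420% of 14287 genes, and 0 had an unadjusted p under 0.05, beside 1479 of all genes. The widest of these differences was that of Cdkn2a (log2 fold change -1.48, SE 0.75, edgeR adjusted p = 0.572). DESeq2 called 0 members at either age.

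The age difference was also compared between the sexes in a single model of all 12 libraries. The interaction of age and sex called 0 of 9 members, beside 0.00635% of 15747 genes, with 0 at an unadjusted p under 0.05 and 0 by DESeq2. This does not show that age acted alike in the sexes, since the SE of the interaction was 0.87 for Cdkn2a, 0.48 for Tnf and Il1b and 1.79 for Il6 on the log2 scale. Leaving out male 65-week replicate 3, the edgeR interaction called Cdkn2a (-2.84, adjusted p = 0.0408), beside 4.66% of 16089 genes, and at 65 weeks its sex difference was -2.82 (edgeR adjusted p = 0.0518), where 5.65% of 14700 genes were called. Of the genes of the 12 lists, edgeR called 0 of 163 between sexes at 2 weeks, 0 of 162 at 65 weeks and 0 of 164 in the interaction. Among the listed genes 29, 27 and 19 had an unadjusted p under 0.05. Over all genes these were 2683 of 15081, 1479 of 14287 and 1880 of 15747. DESeq2 called 5, 11 and 6 listed genes, beside 447, 398 and 394 of all genes. In the fits that left out male 65-week replicate 3, edgeR called 28 of 162 listed genes between old males and females, 15 higher and 13 lower in males, and 16 of 165 in the interaction. The calls at 65 weeks fell in 11 of the 12 lists. They included 5 secreted factors that were higher and 1 that was lower in males, 3 higher and 1 lower G1 genes, 0 higher and 6 lower NF-kappaB genes and 0 higher and 2 lower genes in each of the TNF and interleukin 6 lists.

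**Figure D5:**
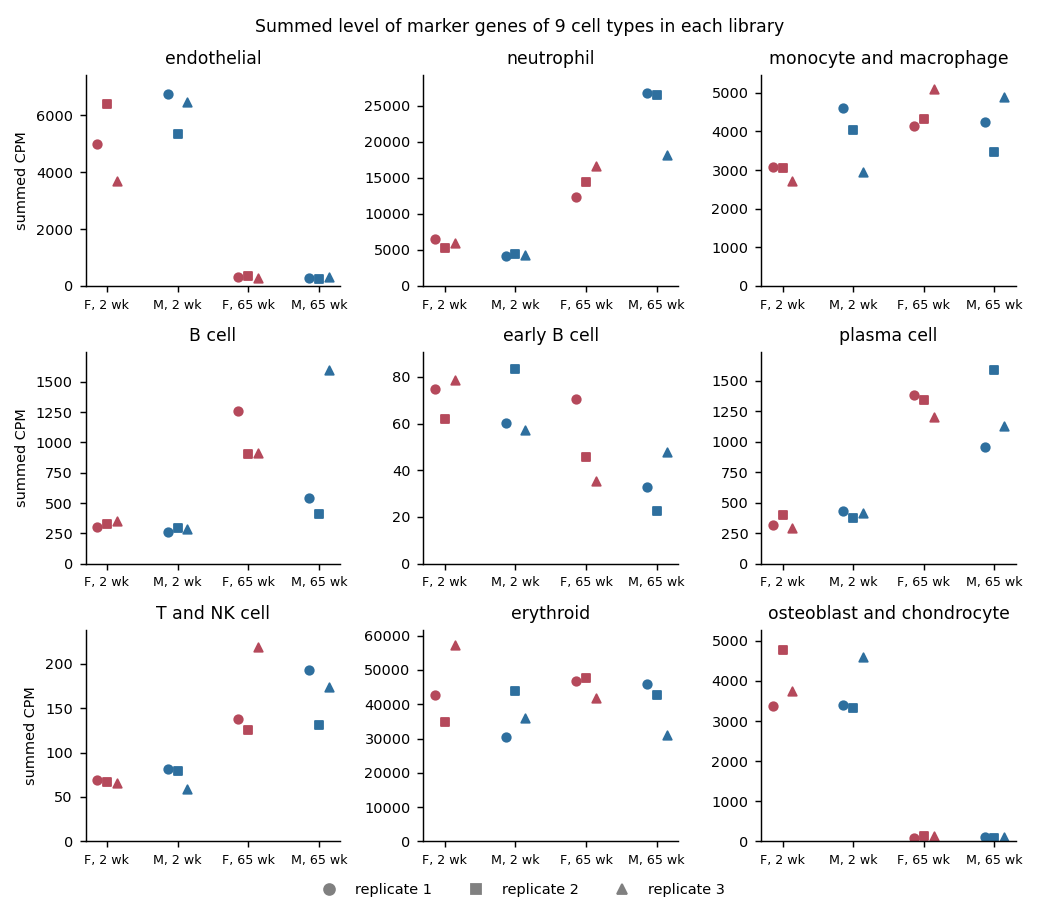
Summed level in CPM of the marker genes of 9 cell types in each library, by sex (F, M) and age in weeks, with the replicate number as the marker. Endothelial markers sat between 245.0 and 361.9 CPM in old libraries and at 3684.8 CPM or more in all young ones, neutrophil markers sat higher in all old libraries, and old male replicate 3 had the most B cell markers, at 1592.6 CPM.

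The members were then set against all other genes within groups, by correlating log2(CPM + 1) over the 12 libraries after subtracting the 4 group means. These are descriptions over 12 points that share library preparation and depth. Among 12530 protein-coding genes with a mean of at least 1 CPM, Il1b was most like Vnn3 (r = 0.975), Csf3r (0.968) and Cxcr2 (0.953), of which Csf3r and Cxcr2 stand in the neutrophil list. Lmnb1 was most like Smc1a (0.991), Cdc20 (0.989) and Slc30a10 (0.986), Cdkn2b like B230219D22Rik (0.984), Cd2ap (0.983) and Msantd4 (0.982), and Cdkn1a like Pard3 (0.971), Sinhcaf (0.967) and Ripk3 (0.961). Trp53 was most like Mrpl39 (0.977), Tnf like Pinx1 (0.971) and Il1a like Pcp4l1 (0.942). Among the members themselves the strongest relation was that of Cdkn2b with Lmnb1 (r = -0.91), followed by Trp53 with Il1a (-0.84), whereas Tnf and Il1b gave 0.05. Cdkn2a and Il6 had a mean under 1 CPM and were not compared in this way.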

How the data were processed

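RNA-seq was carried out on 12 libraries of BECs, 3 for each sex and age. The deposited table holds counts per gene, which the authors had not normalised. The labels name TopHat2, HTSeq and mm9, whereas the methods of the study name STAR, featureCounts and GRCm39, and this was not resolved. The annotation release, the strand setting and the treatment of multimapping reads are not given in the sources used here. The labels give paired reads of 100 nt and name polyadenylated RNA beside a total RNA kit. Per the methods, samples were selected by RNA quality.

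Gene IDs were named from GENCODE M39 (31052 of 37620 matched), which also gave coordinates on GRCm39, and promoters came from RefSeq (GRCm38.p6). Tests used edgeR 4.0.16 in R 4.3.3: the filterByExpr filter (minimum count 10), TMM, quasi-likelihood F test, Benjamini-Hochberg adjustment over all genes tested and a threshold of 0.05, on the 6 libraries of a comparison or on all 12 for the interaction. SEs were derived from the F statistic. DESeq2 1.42.0, other scalings and filters, a replicate block, 1 model of all 12 libraries and leaving out each library were alternatives. The fits were tested on simulated data in which few genes changed, none of them with low counts. This does not cover members with low counts or fits in which most genes differed. The total count sets counting error alone, and the spread between replicates exceeded it (chi-square divided by its degrees of freedom, 24.96 to 95.61). A floor of 3 counts per library was used for lower bounds, and it takes account of counting error alone, because the reads carried no molecular identifiers.

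The members, the 12 pathway lists and the 9 marker lists were chosen with earlier results of these data known. All members are named. From each list and age comparison, the 2 called genes with the smallest adjusted p in each direction qualified for naming if called in the same direction in both sexes with log2 CPM averaging at least 1, as did any listed gene called between sexes or in the interaction, and the 3 genes most like each member with a mean of at least 1 CPM. Of these, the text gives examples. Of the listed genes, Cdkn2d and Vpreb1 had no match.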

Additional observations from a re-analysis of the deposited data

How the results depend on the processing

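The number of members called by edgeR stayed within 1.5 times under every alternative in the age comparisons (7 in females, 5 to 8 without 1 library, and 6 in males, 5 to 7 without 1 library) and stayed at 0 in both sex comparisons. In the interaction it ranged from 0 to 1 without 1 library, the 1 being Cdkn2a without male 65-week replicate 3. The exact permutation p of Il6 ranged from 0.005 to 0.025 without 1 library. Of the log2 fold changes of members, 18 turned their sign, all of differences that had not passed. Cdkn2a in males was at -0.05 with library totals only, -0.01 with no filter and -0.39 with the replicate block, and from -1.34 to 0.51 without 1 library. Without 1 library, Il1a in males ranged from -0.73 to 0.05, and between sexes Cdkn2a at 2 weeks from -0.12 to 0.21, and at 65 weeks Trp53 from -0.06 to 0.07, Lmnb1 from -0.18 to 0.11 and Il1a from -0.01 to 0.77. In the interaction the ranges were -0.05 to 0.18 for Cdkn1a, -0.00 to 0.11 for Trp53, -2.89 to 4.43 for Il6 and -0.32 to 0.46 for Il1a. The causes were not tested.

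Labels share replicate numbers between groups, but same-numbered libraries did not deviate together (correlations from -0.355 to 0.140). With the replicate number as a block, 7 members were called in females, 6 in males and 0 in the other comparisons, as without it. With library totals only, 3668 genes were higher and 5451 lower in females and 3304 and 4865 in males, beside 4568 and 4462 and 4041 and 4257 with TMM. For all genes, counts that moved by more than 1.5 times were those between sexes (5 by edgeR and 447 by DESeq2 at 2 weeks, 6 and 398 at 65 weeks) and of the interaction (1 and 394). Of 45 listed genes qualifying for naming, 42 kept call and direction in all alternatives, and Osm, Socs3 and Atr lost a call without 1 library.

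The low counts of Il6, of Cdkn2a and of Tnf at 2 weeks limit what depth can show, and 3 libraries per group limit all comparisons. Age and the makeup of the isolated cells cannot be told apart.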
